A study of Homo sapiens with 12 samples.

Results

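CCL17, CCL22, CCL3, CCL4, CCL5, CCL20, CXCL9, CXCL10, CXCL11 and the receptor CCR7 are chemokine-system genes known from classical Hodgkin lymphoma. Their probe sets were found by gene symbol in the probe annotation, which gave 13 of 54613 non-control probe sets and 10 of 19776 genes fitted. CCL3 was read only by a probe set that the annotation shares among CCL3, CCL3L1 and CCL3L3, and its values are those of the CCL3 family. CCL5 had 3 probe sets, CXCL11 had 2 and the other members had 1 each, and the probe set with the highest mean signal stood for the gene.

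Expression was measured on 12 arrays of L1236 and L428, established lines of Hodgkin lymphoma cells, which derive from B cells. There were 4 groups of 3 arrays: L1236 after 5-Aza-dC, L1236 untreated, L428 after 5-Aza-dC and L428 untreated. Treated cells received 1 µM of 5-Aza-dC for 24 h, were washed and were kept without it for a further 72 h. Also known as decitabine, 5-Aza-dC is a nucleoside drug that is built into DNA and inhibits DNA methyltransferases; DNA methylation itself was not measured. The labels name no vehicle and no time in culture for the untreated cells, call the experiment triplicate and do not say that replicates were separate cultures, so p-values reflect the spread among these arrays alone, which may be technical. Each group is 1 cell line in culture, without the immune cells that the chemokines act on in a tumour.

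Chemokines are small secreted proteins that direct the migration of leukocytes through G protein-coupled receptors. In classical Hodgkin lymphoma the malignant Hodgkin and Reed-Sternberg cells are a minority of the tumour, and the chemokines they secrete are known for recruiting the surrounding infiltrate. CCL17 and CCL22 bind CCR4 on Th2 and regulatory T cells, CCL3 and CCL5 bind CCR1, CCL20 binds CCR6, and CXCL9, CXCL10 and CXCL11 bind CXCR3 and are classical interferon-induced genes. CCR7, the receptor for CCL19 and CCL21, guides lymphocytes into lymph nodes and is carried by Hodgkin and Reed-Sternberg cells.

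Promoters are shown for the CXCR3 ligands, which are neighbours on chromosome 4, and for CCL22 and CCL20, whose fitted changes were among the larger ones. The sequences are from RefSeq (GRCh38.p14), run 5′ to 3′ from 250 bases before to 50 bases after the gene's start, and matched 6 of the 10 members. Capitals mark matches on either strand to the core of the interferon-stimulated response element, which is a GAAA, any 2 bases and another GAAA, or to the NF-kappaB consensus. Their positions are CXCL9, chr4:76007460-76007759, CXCL10, chr4:76023448-76023747, and CXCL11, chr4:76036021-76036320, all on the minus strand, and CCL22, chr16:57358533-57358832, and CCL20, chr2:227813592-227813891, both on the plus strand.
CXCL9: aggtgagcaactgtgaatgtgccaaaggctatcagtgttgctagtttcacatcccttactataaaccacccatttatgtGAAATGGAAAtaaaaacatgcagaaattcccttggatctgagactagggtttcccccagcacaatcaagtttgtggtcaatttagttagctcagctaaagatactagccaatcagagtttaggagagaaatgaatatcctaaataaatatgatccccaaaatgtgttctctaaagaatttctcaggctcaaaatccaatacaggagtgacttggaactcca
CXCL10: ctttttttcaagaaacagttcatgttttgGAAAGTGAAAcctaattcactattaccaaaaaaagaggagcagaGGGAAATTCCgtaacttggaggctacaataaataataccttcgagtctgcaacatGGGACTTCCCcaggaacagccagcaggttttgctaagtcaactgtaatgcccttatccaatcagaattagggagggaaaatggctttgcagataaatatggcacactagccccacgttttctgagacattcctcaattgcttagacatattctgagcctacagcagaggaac
CXCL11: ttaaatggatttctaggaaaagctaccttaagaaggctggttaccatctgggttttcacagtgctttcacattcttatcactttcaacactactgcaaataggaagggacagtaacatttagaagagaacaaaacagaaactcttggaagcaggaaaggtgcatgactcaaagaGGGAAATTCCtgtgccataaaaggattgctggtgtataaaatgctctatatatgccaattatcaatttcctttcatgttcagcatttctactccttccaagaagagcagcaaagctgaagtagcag
CCL22: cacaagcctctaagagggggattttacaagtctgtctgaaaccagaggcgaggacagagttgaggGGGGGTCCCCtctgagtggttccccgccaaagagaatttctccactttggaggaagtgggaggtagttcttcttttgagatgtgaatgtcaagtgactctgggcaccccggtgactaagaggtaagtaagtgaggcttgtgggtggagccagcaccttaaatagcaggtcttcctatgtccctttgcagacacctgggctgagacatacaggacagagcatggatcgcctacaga
CCL20: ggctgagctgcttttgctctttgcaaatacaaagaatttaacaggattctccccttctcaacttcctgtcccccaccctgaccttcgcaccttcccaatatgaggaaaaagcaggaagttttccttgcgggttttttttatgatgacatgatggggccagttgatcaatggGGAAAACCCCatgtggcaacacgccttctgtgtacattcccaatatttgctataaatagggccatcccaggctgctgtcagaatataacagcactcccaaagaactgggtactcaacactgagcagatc

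The window of CXCL10 held 1 response element core and 2 NF-kappaB matches, which do not overlap each other. That of CXCL9 held 1 response element core and no NF-kappaB match, and those of CXCL11, CCL22 and CCL20 held 1 NF-kappaB match each. The CCL3 window, for which the most upstream of 3 listed transcript starts was used, held neither. It is not printed, although the change of the CCL3 family was also among the larger ones. Every printed window thus holds a match. Of 35116 promoters of the same length, 5.91% held the NF-kappaB consensus and 3.57% the response element core. CpG dinucleotides, the sites of DNA methylation, numbered 4 in CCL22, 3 in each of CCL3, CCL20 and CXCL10, and 0 in CXCL9 and CXCL11, against a median of 14 over all promoters, 29.6% of which held 4 or fewer. A match is a description of these letters and shows no binding.

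Some arrays stood apart or carried conflicting labels. The source name of untreated L1236 replicate 1 describes treated L428 cells, while its description says untreated L1236, which was followed; over all genes it correlated best with another untreated L1236 array, replicate 3. In treated L428 replicate 1 the drug is written Aza in the source name and 5-Aza-dC in the description. Treated replicate 1 of L428 and of L1236 had the largest deviations from their group means over all genes, with an SD of 0.384 in L1236 and 0.449 in L428 against 0.156 to 0.315 on the other 10 arrays, and treated L428 replicate 1 correlated best with untreated L428 replicate 1. Replicate 1 was the lowest treated array for 10 of 10 members in L1236, against 25.7% of all genes, and for 9 of 10 in L428, against 58.6% of all genes, CCL17 being the exception. Treated replicates 2 and 3 differed by at most 0.36 in L1236 (CXCL9) and 0.51 in L428 (CCL3 family). The change of each member is therefore also given without the 4 arrays numbered 1. Where treated replicate 1 was the lowest treated array, leaving it out raises the treated mean, so that fit is no separate support for a rise. It leaves 2 arrays a group, and calls over all genes also went from 2957 to 6818 in L1236 and from 921 to 5719 in L428. In bulk RNA, fewer cells expressing a gene and less RNA per cell cannot be told apart.

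After 5-Aza-dC, 6 of 10 members rose in L1236 (CCL17, CCL22, the CCL3 family, CCL5, CXCL11 and CCR7) and 6 of 10 in L428 (CCL22, the CCL3 family, CCL5, CCL20, CXCL10 and CXCL11). The change was above 0 for all 10 members in both lines. Calls rest on a limma fit over all genes with Benjamini-Hochberg adjusted p under 0.05, by which 8.6% of genes rose and 6.35% fell in L1236, and 3.32% rose and 1.33% fell in L428. The L1236 split between directions depended on scaling, with 1701 genes higher and 1256 lower, or 1743 higher and 2068 lower after median centring. The median change of the members was 2.63 in L1236 and 4.03 in L428 on the log2 scale, where 1 unit is a factor of 2, against -0.03 and -0.02 over all genes. Without the arrays numbered 1, 9 of 10 members rose in L1236 (all but CXCL9), against 16.8% of genes, and 10 of 10 rose in L428, against 14.4%. Without any 1 of untreated or treated replicates 2 and 3 of L1236, 3 members were called in L1236, and without any 1 of untreated or treated replicates 2 and 3 of L428, 2 or 3 were called in L428. Calls over all genes fell in these fits too. In L1236, 970 to 1071 genes were higher, against 1701 with all arrays, and in L428 318 to 352, against 657. All 3 treated arrays lay above all 3 untreated arrays for 8 of 10 members in L1236 (not CCL20 or CXCL9), against 15.8% of genes, and for 9 of 10 in L428 (not CXCL9), against 9.21%. They lay below for no member, against 41.5% of genes in L1236 and 8.67% in L428. The L1236 share far exceeds the 6.35% called lower, and the median change there was -0.03. It takes in very small shifts, such as that of CXCL12, at -0.05.

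**Figure D1:**
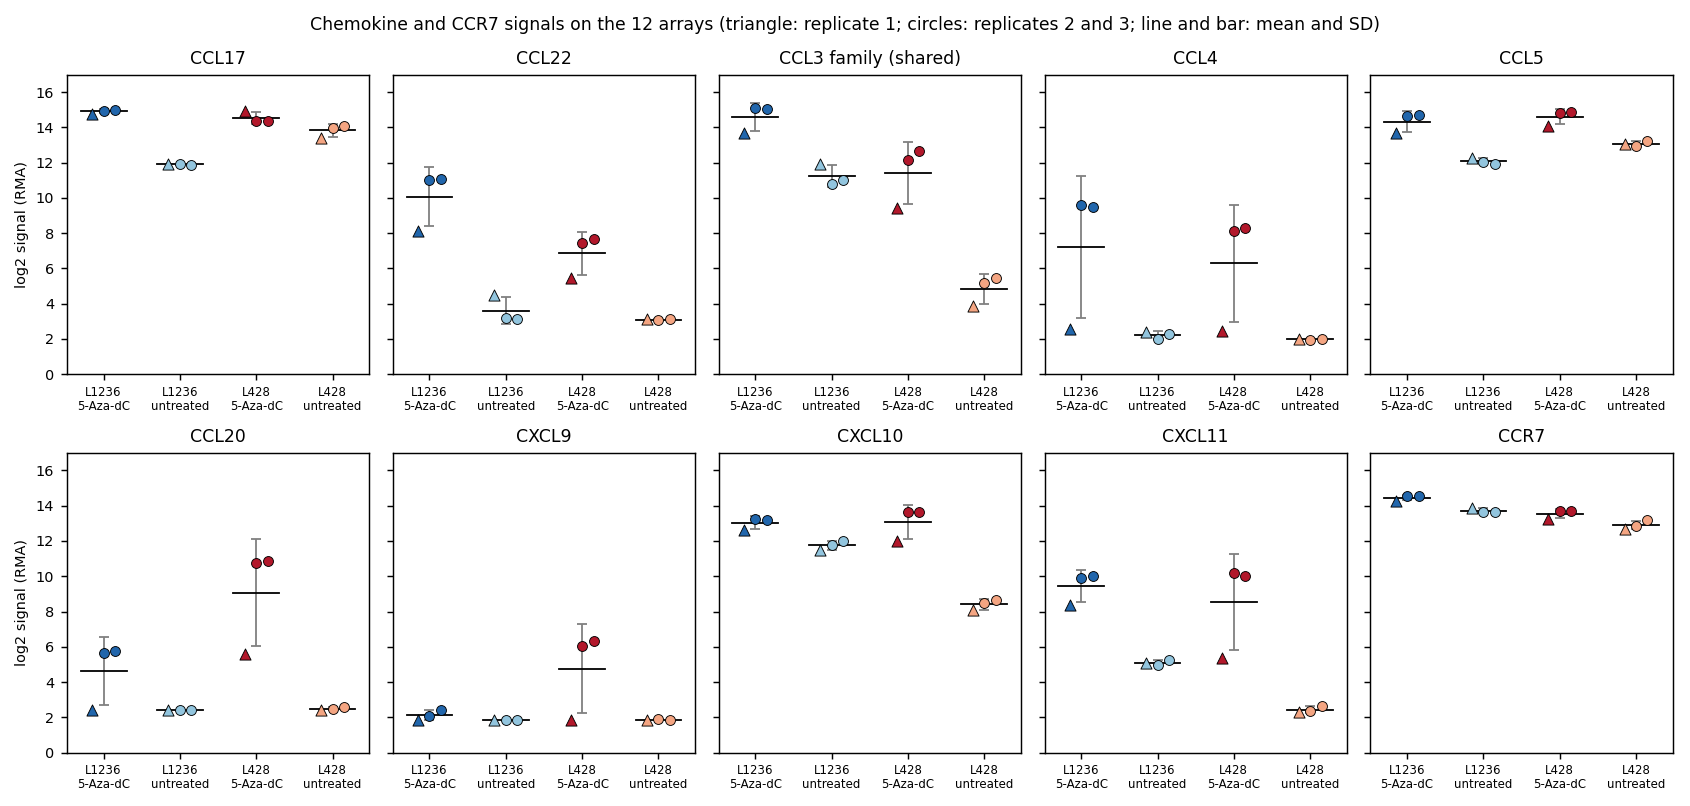
Log2 signal (y axis) of the 10 members on the 12 arrays by group (x axis), with replicate 1 as a triangle, replicates 2 and 3 as circles, and a line and bar for mean and SD. Replicates 2 and 3 of each treated group lie close together, and replicate 1 lies below them in all panels of treated L1236 and in 9 of 10 panels of treated L428.

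CCL17 and CCL22, the ligands of CCR4, were both higher on every treated array than on any untreated array of the same line. CCL17 measured 14.78, 14.92 and 15.01 on the treated L1236 arrays (replicates 1, 2 and 3), against 11.91, 11.92 and 11.86 on the untreated ones. In L428 it measured 14.93, 14.35 and 14.34 on the treated arrays, against 13.41, 13.97 and 14.10 on the untreated arrays. The groups did not overlap in either line, and both lines carried CCL17 near the top of the log2 scale after treatment, while the untreated L1236 arrays were the lowest of the 4 groups. CCL17 rose by 3.01 ± 0.20 (SE) in L1236 (limma, adjusted p = 2.68e-05) and was called there in all 23 alternatives. Its change in L428 was 0.71 ± 0.20 with an adjusted p of 0.0837. Leaving out the arrays numbered 1 gave an L428 change of 0.31 ± 0.06 (adjusted p = 0.0142), smaller and with less spread, and an L1236 change of 3.07 ± 0.06 (6.91e-06). In L428 the untreated replicate 1 was the lowest and the treated replicate 1 the highest array.

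CCL22 was low before treatment. It measured 8.13, 11.01 and 11.06 on the treated L1236 arrays, against 4.50, 3.20 and 3.13 on the untreated arrays. The treated L428 arrays gave 5.44, 7.46 and 7.67, against 3.12, 3.06 and 3.13 on the untreated L428 arrays. Treated and untreated arrays did not overlap in either line, and replicate 1 was the lowest treated array in both. CCL22 rose by 6.45 ± 0.86 in L1236 (limma, adjusted p = 0.00168), a call kept in all 23 alternatives. It rose by 3.76 ± 0.86 in L428 (adjusted p = 0.0432), but the L428 call was kept in only 9 of 23 alternatives. It was lost when any 1 array other than treated replicate 1 of either line was left out (adjusted p 0.0547 to 0.174), and with replicate number as a block (0.0524). CCL22, with the arrays numbered 1 left out, rose by 7.87 ± 0.08 in L1236 (adjusted p = 1.24e-06) and by 4.47 ± 0.08 in L428 (7.72e-06).

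Among the inflammatory CC chemokines, the CCL3 family, which encodes proteins of macrophages and activated lymphocytes, started high in L1236 and low in L428. It measured 13.66, 15.08 and 15.03 on the treated L1236 arrays, against 11.92, 10.76 and 11.03 untreated. The signal in L428 was 9.43, 12.17 and 12.68 on the treated arrays, against 3.88, 5.19 and 5.46 on the untreated arrays. The groups did not overlap within a line, and treated L428 replicate 1 lay below the untreated L1236 arrays while replicates 2 and 3 lay above them. The CCL3 family rose by 3.35 ± 0.85 in L1236 (limma, adjusted p = 0.0301) and by 6.58 ± 0.85 in L428 (0.00328). The L1236 call was lost without untreated replicate 2 or 3 or treated replicate 2 or 3 of L1236 (adjusted p 0.0970 to 0.111), and the L428 call when only the L428 arrays were fitted (0.0879). With the arrays numbered 1 left out, the rises were 4.16 ± 0.20 in L1236 (1.31e-04) and 7.10 ± 0.20 in L428 (3.68e-05).

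CCL4, the close relative of CCL3, split within the treated groups. It measured 2.55, 9.59 and 9.47 on the treated L1236 arrays, against 2.38, 1.98 and 2.29 untreated. Signals in L428 were 2.44, 8.12 and 8.30 on the treated arrays, against 1.99, 1.96 and 1.99 untreated. Treated replicate 1 stayed close to the untreated arrays in both lines, although above them, while treated replicates 2 and 3 lay far above. With all arrays the change was 4.99 ± 2.03 in L1236 (limma, adjusted p = 0.141) and 4.30 ± 2.03 in L428 (0.289), neither of which passed. CCL4 without the arrays numbered 1 rose by 7.40 ± 0.12 in L1236 (4.67e-06) and by 6.23 ± 0.12 in L428 (1.02e-05).

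CCL5 (RANTES), which attracts T cells and eosinophils, was high in all groups. It measured 13.67, 14.64 and 14.69 on the treated L1236 arrays, against 12.25, 12.07 and 11.95 untreated. In L428 it measured 14.11, 14.80 and 14.88 on the treated arrays, against 13.06, 12.93 and 13.23 untreated. Treated and untreated arrays did not overlap in either line. CCL5 rose by 2.24 ± 0.29 in L1236 (limma, adjusted p = 0.00144), a call kept in all 23 alternatives, and by 1.52 ± 0.29 in L428 (0.0217). The other 2 probe sets gave changes of 2.34 and 2.46 in L1236 and of 1.53 and 1.76 in L428. The L428 call was lost without untreated or treated replicate 2 or 3 of L428 (adjusted p 0.0565 to 0.0963) and when only the L428 arrays were fitted (0.0898). CCL5 without the arrays numbered 1 rose by 2.66 ± 0.11 in L1236 (7.90e-05) and by 1.76 ± 0.11 in L428 (4.07e-04).

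CCL20, the ligand of CCR6 on Th17 and memory B cells, was low on every untreated array. It measured 2.39, 5.67 and 5.77 on the treated L1236 arrays, against 2.41, 2.40 and 2.41 untreated. The signal in L428 was 5.58, 10.76 and 10.86 on the treated arrays, against 2.41, 2.45 and 2.60 untreated. In L1236, treated replicate 1 was no higher than the untreated arrays, whereas in L428 all treated arrays lay above the untreated ones. CCL20 rose by 6.58 ± 1.39 in L428 (limma, adjusted p = 0.0328), and its change in L1236 was 2.21 ± 1.39 (0.316). The L428 call was kept in 12 of 23 alternatives, and was lost without any 1 array other than treated replicate 1 of either line and treated L1236 replicate 3 (adjusted p 0.0524 to 0.132). CCL20 without the arrays numbered 1 rose by 3.31 ± 0.07 in L1236 (8.83e-06) and by 8.29 ± 0.07 in L428 (7.28e-07).

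The CXCR3 ligands attract activated T and NK cells. CXCL10 measured 12.63, 13.26 and 13.22 on the treated L1236 arrays, against 11.50, 11.77 and 11.97 untreated. Signals in L428 were 11.98, 13.62 and 13.66 on the treated arrays, against 8.07, 8.48 and 8.66 untreated. The groups did not overlap in either line, and the treated levels of the lines lay in the same range although the untreated L428 arrays were far lower. CXCL10 rose by 4.68 ± 0.42 in L428 (limma, adjusted p = 5.45e-04), a call kept in all 23 alternatives. Its change in L1236 was 1.29 ± 0.42 (0.0758), and it passed in 6 of 23 alternatives. These were leaving out dim genes, array weights, only the L1236 arrays fitted, leaving out the arrays numbered 1, and 1 of the 12 fits without a single array. The last was replicate number as a block (0.0180), although deviations of same-numbered L1236 arrays were barely correlated. CXCL10 without the arrays numbered 1 rose by 1.37 ± 0.09 in L1236 (3.20e-04) and by 5.07 ± 0.09 in L428 (7.78e-06).

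CXCL11 measured 8.39, 9.89 and 10.03 on the treated L1236 arrays, against 5.11, 4.95 and 5.24 untreated. In L428 it measured 5.38, 10.17 and 10.02 on the treated arrays, against 2.29, 2.33 and 2.65 untreated. Again no treated array overlapped an untreated one, and treated L428 replicate 1 lay between the untreated arrays and the other treated arrays. CXCL11 rose by 4.34 ± 1.12 in L1236 (limma, adjusted p = 0.0324) and by 6.10 ± 1.12 in L428 (0.0184). Its second probe set, fitted singly among all probe sets, gave 2.64 ± 1.23 in L1236 (0.222) and 3.25 ± 1.23 in L428 (0.226), in the same direction without passing. With the mean of both probe sets the calls were lost, at 0.0727 in L1236 and 0.0567 in L428. The L1236 call was also lost without any 1 array of untreated L1236, treated replicate 2 or 3 of L1236 or untreated replicate 2 or 3 of L428 (adjusted p 0.0511 to 0.115). The L428 call was lost without untreated or treated replicate 2 or 3 of L428 (0.0579 to 0.0788). CXCL11 without the arrays numbered 1 rose by 4.87 ± 0.15 in L1236 (3.15e-05) and by 7.61 ± 0.15 in L428 (1.09e-05).

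CXCL9 was near the bottom of the scale on all arrays except treated L428 replicates 2 and 3. It measured 1.87, 2.07 and 2.43 on the treated L1236 arrays, against 1.87, 1.86 and 1.87 untreated. The signal in L428 was 1.86, 6.06 and 6.35 on the treated arrays, against 1.87, 1.89 and 1.87 untreated. Treated L428 replicate 1 lay just below the untreated arrays of its line, and treated L1236 replicates 2 and 3 lay slightly above theirs. The change was 0.25 ± 0.98 in L1236 (limma, adjusted p = 0.870) and 2.88 ± 0.98 in L428 (0.143). Without the arrays numbered 1 it was 0.38 ± 0.15 in L1236 (0.113), not called, and CXCL9 rose by 4.33 ± 0.15 in L428 (6.72e-05).

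The receptor CCR7 was high on all arrays. It measured 14.29, 14.55 and 14.54 on the treated L1236 arrays, against 13.87, 13.63 and 13.63 untreated. Signals in L428 were 13.26, 13.69 and 13.70 on the treated arrays, against 12.71, 12.85 and 13.18 untreated. The groups did not overlap, with small distances. CCR7 rose by 0.75 ± 0.16 in L1236 (limma, adjusted p = 0.0143), a call lost without untreated or treated replicate 2 or 3 of L1236 (0.0544 to 0.0599). Its change in L428 was 0.64 ± 0.16 (0.0576). CCR7 without the arrays numbered 1 rose by 0.92 ± 0.11 in L1236 (0.00213) and by 0.68 ± 0.11 in L428 (0.00814).

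Several L428 calls were lost when fewer arrays were fitted or low values were levelled. With only the L428 arrays fitted, CXCL10 was the single member called in L428 (limma, adjusted p = 0.0455), and CCL22 (0.105), CCL20 (0.182) and CXCL11 (0.176) were lost besides the CCL3 family and CCL5. With log2 values floored at 4, CCL22 (0.124), CCL20 (0.0806) and CXCL11 (0.0829) were lost in L428 and the 6 calls in L1236 were kept. With all probe sets fitted singly, CCL22 was lost in L428 (0.0578).

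**Figure D2:**
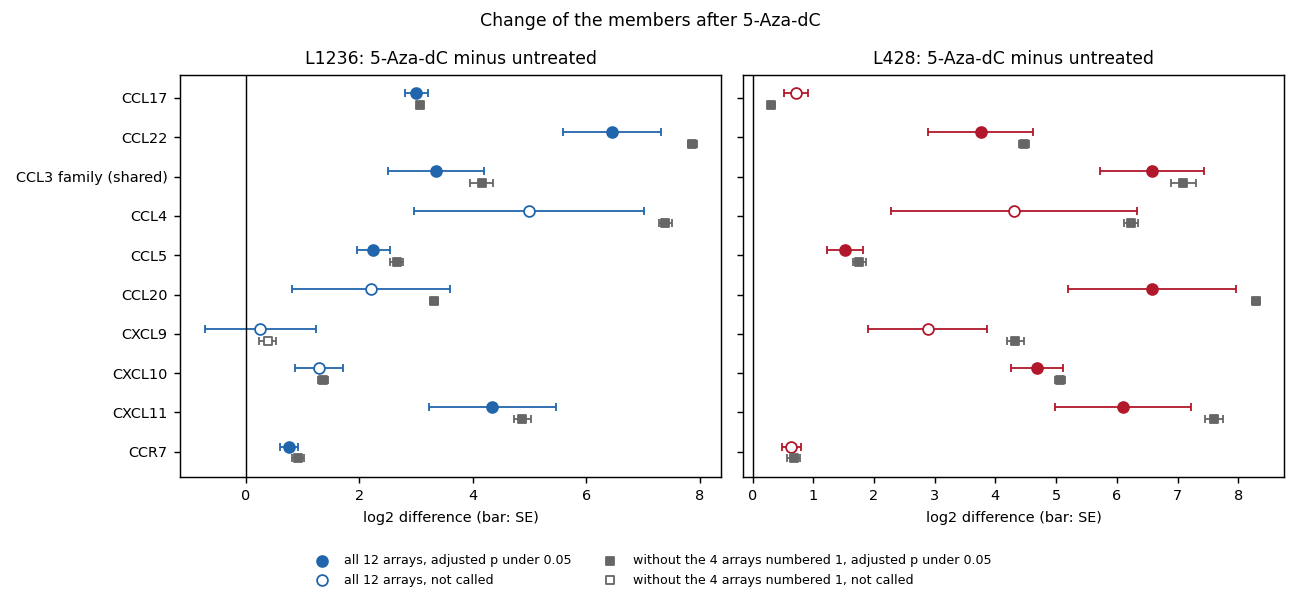
Log2 difference of treated minus untreated (x axis, bars are SE) for each member in L1236 (left) and L428 (right), with all 12 arrays (circles) and without the 4 arrays numbered 1 (squares), filled where the adjusted p was under 0.05. With all arrays 6 members are filled in each line, and without the arrays numbered 1 all but CXCL9 in L1236 are.

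The response of L1236 was then set against that of L428 in the same fit. It was larger in L1236 for CCL17 and larger in L428 for CXCL10. The CCL17 responses differed by 2.29 ± 0.28 (L1236 minus L428, limma, adjusted p = 0.00298), and this was called in all 22 alternatives. The CXCL10 responses differed by -3.40 ± 0.60 (adjusted p = 0.0164), a call lost only without untreated L1236 replicate 3 (0.0507). These are 1 of 10 members above, against 2.66% of genes, and 1 of 10 below, against 1.96%. Without treated L428 replicate 1 alone, 6 members were called, and without untreated L1236 replicate 3 alone 1 was, where 1955 and 442 of all genes were called, against 914 with all arrays. The other 8 members did not pass with all arrays, and their 95% intervals were wide: -0.06 to 5.46 for CCL22, -5.95 to -0.51 for the CCL3 family, -5.83 to 7.19 for CCL4, and -8.83 to 0.08 for CCL20. The interval was -0.21 to 1.65 for CCL5, -5.78 to 0.52 for CXCL9, -5.34 to 1.83 for CXCL11 and -0.39 to 0.62 for CCR7. The interval of the CCL3 family lies below 0, but its p adjusted over all genes was 0.203.

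Without the arrays numbered 1, 9 of 10 members differed between the lines. The responses of CCL17, CCL22, CCL4 and CCL5 were larger in L1236, by 2.76 ± 0.08, 3.39 ± 0.11, 1.17 ± 0.17 and 0.90 ± 0.15 (limma, adjusted p 7.27e-05 for CCL17, 9.01e-05 for CCL22, 0.00817 for CCL4 and 0.0137 for CCL5), against 11.4% of genes called in that direction. Those of the CCL3 family, CCL20 and all 3 CXCR3 ligands were larger in L428, against 12.4% of genes. The differences were -2.94 ± 0.29 for the CCL3 family, -4.97 ± 0.10 for CCL20, -3.95 ± 0.21 for CXCL9, -3.70 ± 0.12 for CXCL10 and -2.74 ± 0.21 for CXCL11. These calls come from 2 arrays a group, after the arrays numbered 1 were left out because the treated ones stood apart. Leaving them out narrows the spread, and calls over all genes went from 914 to 4698. The fit is therefore no separate support for a difference between the lines. CCR7 did not pass, at 0.24 ± 0.15 (0.368).

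**Figure D3:**
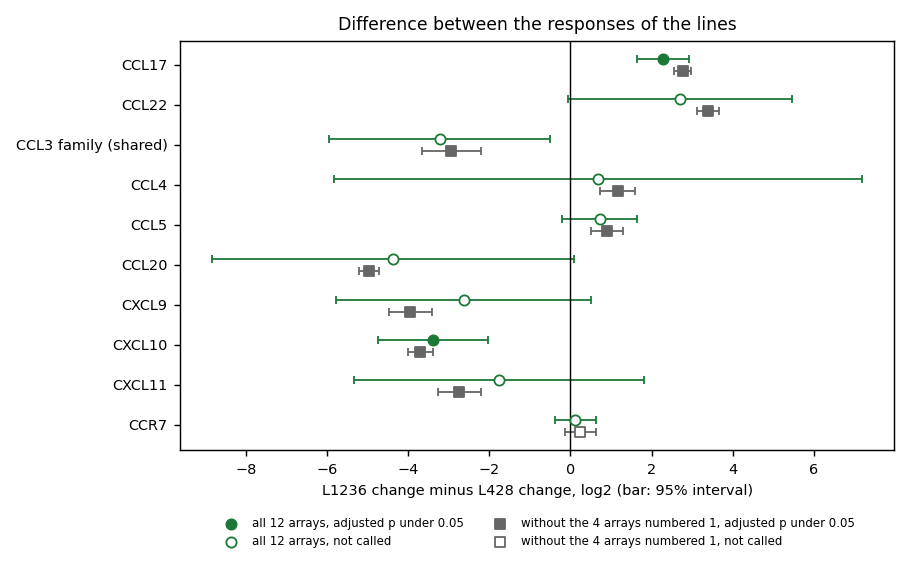
Difference between responses, L1236 change minus L428 change in log2 units (x axis, bars are 95% intervals), for each member with all 12 arrays (circles) and without the 4 arrays numbered 1 (squares), filled where the adjusted p was under 0.05. CCL17 lies above 0 and CXCL10 below 0 in both fits, and the intervals with all arrays are widest for CCL4 and CCL20.

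The untreated lines already differed. In untreated L1236 against untreated L428, 3 of 10 members were higher, against 15.2% of genes, and 2 of 10 lower, against 13.6%. The CCL3 family was higher by 6.40 ± 0.85 (limma, adjusted p = 3.82e-04), CXCL10 by 3.35 ± 0.42 (2.80e-04) and CCR7 by 0.80 ± 0.16 (0.00419). CCL17 was lower, at -1.93 ± 0.20 (8.10e-05), as was CCL5, at -0.99 ± 0.29 (0.0310). With all probe sets fitted singly, the other 2 CCL5 probe sets gave -1.10 (adjusted p = 0.0319) and -0.68 (0.171), so that 1 of them did not pass. The CCL5 call was lost without any 1 of the 6 untreated arrays (0.0539 to 0.0977) and after cyclic loess (0.0515). Without the arrays numbered 1 the same 5 passed, and CXCL11 was also higher, so that 4 members were higher, against 19.9% of genes, and 2 lower, against 18.0%. With all arrays CXCL11 differed by 2.67 ± 1.12 (0.118) and did not pass. Its second probe set, fitted singly among all probe sets, gave 0.29 ± 1.23 (limma, adjusted p = 0.905). CCL22, CCL4, CCL20 and CXCL9 had low signals in both untreated lines, and none of these passed.

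Between the treated lines, 3 of 10 members were higher in L1236, against 16.7% of genes, and 1 of 10 lower, against 14.5%. Treated L1236 exceeded treated L428 by 3.21 ± 0.86 in CCL22 (limma, adjusted p = 0.0191), 3.17 ± 0.85 in the CCL3 family (0.0189) and 0.91 ± 0.16 in CCR7 (0.00180). CCL20 was lower, at -4.45 ± 1.39 (0.0375), a call kept in 10 of 23 alternatives and lost without any 1 array other than treated L428 replicate 1 and treated L1236 replicate 3 (0.0524 to 0.129). The CCL22 call was lost without treated L428 replicate 1 or treated L1236 replicate 2 or 3 (0.0567 to 0.0737), and the CCL3 family call without treated L1236 replicate 2 or 3 (0.0636 to 0.0671). In place of 4, 1 member was called without treated L1236 replicate 2 and 2 were without treated L1236 replicate 3. With only the treated arrays fitted, CCR7 alone passed (0.0142), with 0.109 for CCL22, 0.0924 for the CCL3 family and 0.182 for CCL20, and CCL20 was also lost with the floor (0.0526) and with all probe sets (0.0529). The difference was -0.05 for CXCL10 (0.931) and -2.64 for CXCL9 (0.0739). Without the arrays numbered 1, 5 members were higher (CCL17, CCL22, the CCL3 family, CCL4 and CCR7), against 21.8% of genes, and 3 were lower (CCL20, CXCL9 and CXCL10), against 19.7%.

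By mean level the groups fell into different orders for different members. For CCL17 the order from the top was treated L1236, treated L428, untreated L428 and untreated L1236, and only the 2 treated groups overlapped. For CCL22 it was treated L1236, treated L428, untreated L1236 and untreated L428, with no neighbours overlapping. The CCL3 family, CCL4 and CXCL11 followed this same order, with overlap between treated L428 and untreated L1236 for the CCL3 family, between the treated groups for CXCL11, and both between the treated and between the untreated groups for CCL4. The second CXCL11 probe set had treated L428, at 6.43, above treated L1236, at 6.12. For CCL5, treated L428 and treated L1236 overlapped at the top, then came untreated L428 and untreated L1236. CXCL10 had treated L428 and treated L1236 overlapping at the top, then untreated L1236 and untreated L428. For CCL20 and CXCL9 the order was treated L428, treated L1236, untreated L428 and untreated L1236, with every pair of neighbours overlapping. CCR7 followed the line, with treated and untreated L1236 above treated and untreated L428, and untreated L1236 overlapping treated L428.

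Companion lists of genes of the same system were counted in the same fit. Of 30 other secreted chemokines measured of 34 listed, 3 rose in L1236, against 8.6% of all genes, 1 rose in L428, against 3.32%, none fell, and the median change was 0.00 and -0.02. These shares are near those of all genes. Leaving out the arrays numbered 1, 9 rose in L1236 and 4 in L428, against 16.8% and 14.4% of all genes, and none fell. The 4 in L428 were named after their values were seen. CCL2 was at 6.44 (limma, adjusted p = 6.05e-07), CXCL8 at 4.06 (2.07e-04), CCL1 at 1.67 (0.00473) and CCL28 at 0.65 (0.0134). With all arrays none of them passed in L428, with CCL2 at 4.29 ± 1.45 (0.139) and CXCL8 at 2.70 ± 1.90 (0.520). Among the 9 in L1236 were CCL2 at 1.18 (5.79e-05) and CXCL8 at 5.65 (4.71e-05). Array weights gave 8 higher and 9 lower in L1236. In L1236, CX3CL1, the membrane-bound chemokine fractalkine, rose by 3.47 ± 0.37 (limma, adjusted p = 5.11e-04), CCL19, a ligand of CCR7, by 2.74 ± 0.75 (0.0400) and CCL1, a ligand of CCR8, by 1.55 ± 0.42 (0.0399). CX3CL1 changed by -0.25 ± 0.37 in L428, and the responses differed by 3.71 ± 0.52 (0.00580). Its level was higher in L428, with means of 10.95 treated and 11.20 untreated, against 6.61 treated and 3.15 untreated in L1236. In L428 the call was CXCL16, the ligand of CXCR6, at 1.59 ± 0.36 (0.0426), which did not pass without the arrays numbered 1 (0.120). In L1236 the changes without the arrays numbered 1 were 3.95 for CX3CL1 (5.48e-04), 3.83 for CCL19 (9.45e-06) and 1.86 for CCL1 (0.00241). CX3CL1 kept its L1236 call in all 23 alternatives, whereas CCL1 kept it in 13, CCL19 in 10 and CXCL16 its L428 call in 9 of 23. Each of these 3 was lost without 1 or another single array: CCL1 without any treated L1236 array, untreated L1236 replicate 2 or 3, or replicate 3 of either L428 group, CCL19 without any array but treated replicate 1 of either line, and CXCL16 without any array but treated L428 replicate 1 and untreated L428 replicates 2 and 3. Over all alternatives that lost the call, the adjusted p was 0.0563 to 0.132 for CCL1, 0.0542 to 0.158 for CCL19 and 0.0567 to 0.255 for CXCL16. CCL21, the other CCR7 ligand, stayed between 2.33 and 2.46 on all arrays.

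Of 19 receptors measured of 21 listed, 3 rose in L1236, against 8.6% of all genes, and 1 fell, against 6.35%. In L428 limma called none, and none had an unadjusted p under 0.05. With the arrays numbered 1 left out, 5 were higher and 2 lower in L1236, against 16.8% and 17.7% of all genes, and 2 were higher in L428, against 14.4%. Array weights gave 5 higher and 6 lower in L1236, and 1 higher and 2 lower in L428. ACKR1, a decoy receptor that binds many chemokines without signalling, rose by 5.70 ± 0.34 in L1236 (limma, adjusted p = 1.16e-05). CXCR5, the receptor for CXCL13 on follicular B cells, rose by 3.69 ± 0.38 (4.40e-04), and CCR6, the receptor for CCL20, rose by 3.27 ± 0.94 (0.0488). CXCR4, the receptor for CXCL12, fell by 1.22 on the log2 scale (0.0299). The responses differed between the lines by 5.50 ± 0.47 for ACKR1 (3.40e-04) and 3.76 ± 0.54 for CXCR5 (0.00644). ACKR1 and CXCR5 kept their L1236 calls in all 23 alternatives. The receptors' L1236 changes without the arrays numbered 1 were 6.14 for ACKR1 (1.03e-05), 4.42 for CXCR5 (5.03e-05), 4.65 for CCR6 (3.53e-05) and -1.62 for CXCR4 (6.29e-04). The CCR6 call was kept in 6 of 23 and lost without any 1 array other than treated L1236 replicate 1, with an adjusted p of 0.0502 to 0.174 over the alternatives that lost it. The CXCR4 call was kept in 17 and lost without any 1 L1236 array other than treated replicate 1, or with only the groups compared fitted (0.0642 to 0.114). CCR4, bound by CCL17 and CCL22, averaged 8.67 ± 0.70 in treated L1236 and 7.34 ± 0.53 in untreated L1236, and 9.67 ± 0.32 in treated L428 and 9.77 ± 0.63 in untreated L428 (SD, n = 3 each). CXCR3 averaged 5.63 ± 1.11 and 6.64 ± 0.41 in treated and untreated L1236, and 7.40 ± 0.37 and 6.62 ± 0.45 in treated and untreated L428. Neither passed in either line with all arrays. CCR4 without the arrays numbered 1 changed by 2.01 in L1236 (0.00326), and CXCR3 by -1.88 in L1236 (0.00119) and 0.67 in L428 (0.0488). CCR1 stayed between 2.66 and 3.24 on all arrays.

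Of 20 listed regulators of chemokine genes 18 were measured, among them the NF-kappaB inhibitors NFKBIA, NFKBIE and TNFAIP3. Of these 18, 9 rose in L1236, against 8.6% of all genes, and 4 in L428, against 3.32%. None fell with all arrays. The median change was 1.13 in L1236 and 0.31 in L428. Among the arrays not numbered 1, 16 were higher in L1236, against 16.8% of all genes, while in L428 6 were higher, against 14.4%, and 3 were lower, against 14.6%. Those 3, named after their values were seen, were the NF-kappaB inhibitor NFKBIA at -0.63 (limma, adjusted p = 0.00406), IRF5 at -0.65 (0.0102) and STAT6 at -0.61 (0.0193). IFNG, which encodes interferon gamma and was also named after its values were seen, was among the 6 higher, at 5.30 (1.42e-04). With all arrays its L428 change was 3.53 ± 1.20 (0.143), not called, and its L1236 change was 0.26 ± 1.20 (0.894). IFNG lay between 2.26 and 7.60 in treated L428 and between 2.26 and 2.29 in untreated L428. Array weights gave 6 higher and 3 lower in L428. In L1236 the largest were the lymphotoxin gene LTA at 2.78 ± 0.34 (limma, adjusted p = 0.00105), the interferon regulatory factors IRF7 at 2.75 ± 0.49 (0.00716) and IRF1 at 2.38 ± 0.31 (0.00156), the NF-kappaB inhibitor TNFAIP3 at 2.37 ± 0.29 (0.00102) and TNF at 2.35 ± 0.58 (0.0282). In L428 IFNB1, which encodes interferon beta, rose by 4.89 ± 0.82 (0.0129), IRF7 by 4.76 ± 0.49 (0.00113), IRF1 by 1.51 ± 0.31 (0.0310) and the NF-kappaB inhibitor NFKBIE by 0.98 ± 0.19 (0.0217). IFNB1 lay between 2.44 and 4.94 in treated L1236, 2.44 and 2.46 in untreated L1236, 5.38 and 8.51 in treated L428, and 2.44 and 2.49 in untreated L428. The L1236 changes without the arrays numbered 1 were 3.05 for LTA (6.05e-04), 3.38 for IRF7 (8.93e-05), 2.76 for IRF1 (4.94e-05), 2.88 for TNFAIP3 (3.55e-05) and 2.56 for TNF (0.00101). The L428 changes without them were 5.86 for IFNB1 (6.76e-04), 5.19 for IRF7 (3.41e-05), 1.90 for IRF1 (2.42e-04) and 1.26 for NFKBIE (4.01e-04). The responses differed for TNFAIP3 by 1.98 ± 0.41 (0.0299) and for STAT3 by 1.31 ± 0.18 (0.00566), both larger in L1236. In each line, fitting only the groups compared also ended the calls described here as lost, and the ranges of adjusted p cover it. In L1236 the calls of LTA, IRF7, IRF1 and TNFAIP3 were kept in all 23 alternatives, and that of TNF was lost without any 1 L1236 array other than treated replicate 1 (adjusted p 0.0592 to 0.109). In L428 the call of IRF7 was kept in all 23, and that of IFNB1 was lost without treated L428 replicate 2 or 3 (0.0551 to 0.117). NFKBIE lost its L428 call without untreated or treated replicate 2 or 3 of L428 (0.0736 to 0.130). IRF1 kept its L428 call in 13 of 23 and lost it without any 1 array other than treated replicate 1 of either line, untreated L1236 replicate 1 and treated L1236 replicate 3, and with the mean of its probe sets (0.0521 to 0.144). The TNFAIP3 difference was lost in 11 of 22 alternatives, without any 1 array other than replicate 1 of either L1236 group and treated L428 replicate 1, with the mean of a gene's probe sets and with the replicate block (0.0502 to 0.0794 over these).

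**Figure D4:**
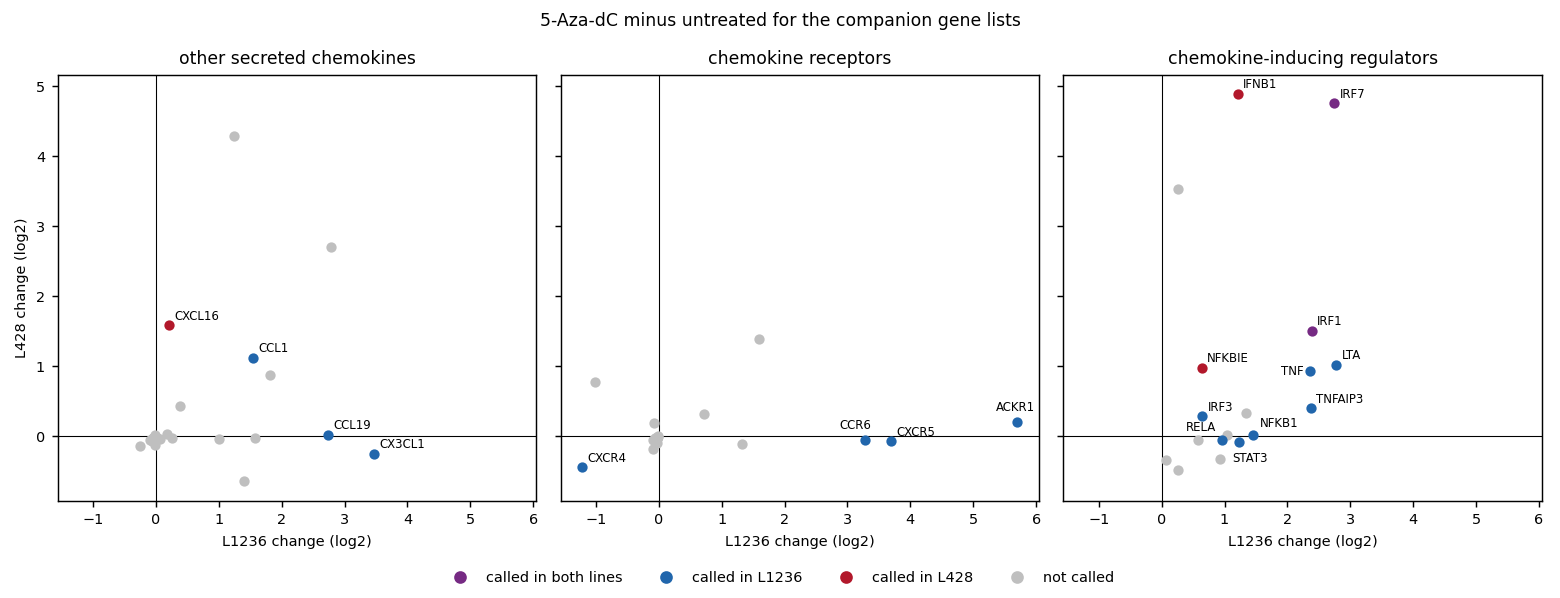
Log2 change after 5-Aza-dC in L1236 (x axis) and L428 (y axis) for other secreted chemokines (left), chemokine receptors (middle) and regulators of chemokine genes (right), coloured by the line in which limma called the gene. The right panel, titled chemokine-inducing regulators, also holds the NF-kappaB inhibitors NFKBIA, NFKBIE and TNFAIP3. ACKR1, CXCR5 and CX3CL1 lie far to the right with a change near 0 in L428, the change of IFNB1 is large in L428, and IRF7 and IRF1 are called in both lines.

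For the member with the widest span of group means in each role, the genes with the most similar pattern were found by Pearson correlation over the 12 arrays, among 7315 genes whose group means span at least 1 log2 unit. For CCL22 they were ATF3 (r = 0.989), ULBP2 (0.987) and IRF1 (0.986). For the CCL3 family they were TNFSF9 (0.988), IFT22 (0.981) and EDARADD (0.980). CCL20 was closest to LIN28B (0.997), THBS1 (0.990) and TRIM56 (0.990), and CXCL11 to IGFBP6 (0.983), NXN (0.983) and H2AC8 (0.981). CCR7 was closest to SEMA4D (0.981), TAP1 (0.981) and DUSP5 (0.979). The 12 arrays share lines, treatment and the low replicate 1 arrays, and these values describe similarity of pattern only.

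Of the Hodgkin and Reed-Sternberg markers, TNFRSF8 (CD30) was high in both lines, and TRAF1 was at 2.07 in treated and 2.10 in untreated L1236. The mean level of the 7 markers was 9.73 to 10.50 in treated L1236 and 9.28 to 9.43 in untreated L1236, and 11.07 to 11.23 in treated L428 and 10.63 to 11.38 in untreated L428, and 2 of the 7 rose in L1236. Of the B-cell list, with 5 of 6 measured, MS4A1 was below 4 on all arrays, and the mean level was 7.08 to 7.38 in treated and 7.04 to 7.20 in untreated L1236, against 3.73 to 4.01 in treated and 3.57 to 3.63 in untreated L428, with 1 of 5 higher in each line. PAX5 averaged 12.61 and 11.78 and POU2AF1 12.23 and 13.41 in treated and untreated L1236. In L428 PAX5 averaged 6.54 treated and 5.32 untreated, and POU2AF1 2.39 in both. CD79A lay between 3.42 and 4.24 and CD79B between 4.06 and 5.64 on all arrays. Of 10 T and NK cell markers, CD3E, CD3G, CD7, CD247 and GNLY were below 4 on all arrays, and 2 of 10 rose in L1236 (CD3D and CD8A) and 1 in L428 (CD2). Their mean level was 3.48 to 3.58 in treated and 2.69 to 2.80 in untreated L1236, and 3.07 to 3.33 in treated and 2.81 to 3.04 in untreated L428. CD14, LYZ, CD163, S100A9 and MPO of 8 measured myeloid markers were below 4 on all arrays, with list means of 2.97 to 3.55 in treated and 2.90 to 2.96 in untreated L1236, and 2.80 to 2.997 in treated and 2.71 to 2.87 in untreated L428. COL1A2, COL3A1, DCN, LUM, VWF and CDH5 of 10 stromal, endothelial and epithelial markers were also below 4 on all arrays, with list means of 4.86 to 5.09 in treated and 3.98 to 4.08 in untreated L1236, and 3.64 to 3.75 in treated and 3.62 to 3.72 in untreated L428. In treated and untreated L1236, PECAM1 averaged 10.54 and 11.56, COL1A1 10.52 and 7.66, EPCAM 8.20 and 2.83, and KRT19 4.36 and 2.33. Treated and untreated L428 had 7.01 and 7.41 for PECAM1, 8.50 and 7.71 for COL1A1, 2.83 and 2.85 for EPCAM, and 2.34 in both for KRT19. In L1236, 4 of the 10 stromal, endothelial and epithelial markers (COL1A1, VWF, EPCAM and KRT19) and 1 of the 8 myeloid markers (ITGAM) rose. For all the marker counts given here, the share of all genes that rose was 8.6% in L1236 and 3.32% in L428. The part of the marker genes in the chemokine changes was not tested.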

How the data were processed

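The authors deposited 1 log2 signal per probe set and array, made, per the submitters' processing notes, by RMA (robust multichip average); its version, and any scaling or centring beyond it, are not given in the sources used here. Probe set names are those of a 3′ expression array, which disagrees with the whole-transcript array of the design text. Column medians were 3.01 to 3.08 and values ran from 0.66 to 16.62; the files used here hold no detection calls, so no probe set was called absent, and low values have no reliable fold change.

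Of 54675 probe sets, 62 are controls, 41091 have 1 symbol, 1801 several and 11721 none. Of those with 1 symbol, 41037 were matched by Entrez ID to RefSeq symbols (GRCh38.p14). The probe set with the highest mean stood for each of 19775 genes, and the shared CCL3 family probe set was added. All 12 arrays entered a single limma model (version 3.58.1, R 4.3.3) of 4 group means, without a filter on dim genes, and p-values were adjusted over 19776 features by Benjamini-Hochberg, with calls at 0.05.

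Members and lists were chosen with earlier results of these data known. Named are all members, up to 5 called genes with the largest change per list and line, ligands or receptors of members, and the 3 genes most like the widest-ranging member of each role. Genes marked as named after their values were seen can fall outside these rules. Deviations of same-numbered arrays from their group means had an r over genes of 0.164 to 0.250 between the L428 groups. The values were 0.107 to 0.360 between the untreated lines, 0.243 to 0.400 between the treated lines and -0.02 to 0.06 between the L1236 groups. Deviations from a mean of 3 arrays depend on each other, and arrays with different numbers were not compared. These values therefore cannot show whether the numbers pair arrays. Alternatives were the mean of a gene's probe sets, all probe sets, quantile normalization, median centring, cyclic loess, leaving out dim genes, a floor at 4, array weights, fitting only the groups compared, a replicate block, leaving out each array and leaving out the 4 arrays numbered 1.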

Additional observations from a re-analysis of the deposited data

Results flagged for a closer look

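The L1236 and L428 responses of 2 members differed by a test of the difference itself. For CCL17 the L1236 response minus the L428 response was 2.29 on the log2 scale (limma, adjusted p = 0.00298), with a change of 3.01 ± 0.20 in L1236 and 0.71 ± 0.20 in L428. For CXCL10 it was -3.40 (adjusted p = 0.0164), with a change of 1.29 ± 0.42 in L1236 and 4.68 ± 0.42 in L428. Untreated L1236 minus untreated L428 was -1.93 in CCL17 and 3.35 in CXCL10, and treated L1236 minus treated L428 was 0.36 in CCL17 and -0.05 in CXCL10.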

How the results depend on the processing

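Of 10 members, 6 were called in L1236, with 3 to 7 when single arrays were left out. In L428, 6 were called, with 3 under a floor at 4, 1 with only the groups compared, 10 without the arrays numbered 1, and 2 to 8 leaving out single arrays. For the difference between responses 2 were called, with 8 under array weights, 9 without the arrays numbered 1 and 1 to 6 leaving out single arrays. Between the treated lines 4 were called, with 1 when only the groups compared were fitted, 8 without the arrays numbered 1 and 1 to 5 leaving out single arrays. Between the untreated lines the count stayed within a factor of 1.5.

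Of the other chemokines 1 was called in L428, with 0 when all probe sets were fitted, after quantile normalization, or with only the groups compared, 5 under array weights (none lower), 4 without the arrays numbered 1 and 0 to 2 leaving out single arrays. In L1236, 3 were called, with 1 when all probe sets were fitted or under the floor, 17 under array weights (8 higher, 9 lower), 9 without the arrays numbered 1 (none lower) and 1 to 8 leaving out single arrays. Of the receptors 0 were called in L428, with 3 under array weights (1 higher, 2 lower), 2 without the arrays numbered 1 (none lower) and 0 to 1 leaving out single arrays. In L1236, 4 were called (3 higher, 1 lower), with 11 under array weights (5 higher, 6 lower), 2 with only the groups compared, 7 without the arrays numbered 1 (5 higher, 2 lower) and 2 to 8 leaving out single arrays. Of the regulators 4 were called in L428, with 9 under array weights, 1 with only the groups compared, 9 without the arrays numbered 1 (6 higher and 3 lower in both sets of 9) and 1 to 5 leaving out single arrays. In L1236, 9 were called, with 16 under array weights, 5 with only the groups compared, 16 without the arrays numbered 1 and 5 to 14 leaving out single arrays.

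With replicate number as a block, the L428 call of CCL22 was lost (adjusted p = 0.0524), CXCL10 in L1236 passed (0.0180), and 0 of the other chemokines were called in L428; no other call of a member changed.

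Some differences that were not called changed sign. The CXCL9 difference between the untreated lines was -0.01, with 0.0012 after quantile normalization, 0.018 after median centring, 0.019 after cyclic loess and up to 5.5e-05 leaving out single arrays, from -0.0099. Between the treated lines CXCL11 was 0.92, with -0.13 without the arrays numbered 1 and -0.66 to 1.74 leaving out single arrays; CCL4, at 0.92, ran from -1.01 to 3.24, CCL5 from -0.51 to 0.065 and CXCL10 from -0.60 to 0.24. The difference between responses ran from -1.24 to 3.01 in CCL4, against 0.68 with all arrays, and from -0.027 to 0.22 in CCR7. None of these was called with all arrays.

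Over all genes, 921 were called in L428, with 206 when only the groups compared were fitted, 603 under the floor, 6562 under array weights, 5719 without the arrays numbered 1 and 370 to 3533 leaving out single arrays. In L1236, 2957 were called, with 9727 under array weights, 6818 without the arrays numbered 1 and 1506 to 4489 leaving out single arrays. For the difference 914 were called, with 5719 and 4698 under these 2 settings and 442 to 2112 leaving out single arrays, and array weights gave 8761 and 9717 calls for the untreated and treated lines, against 5700 and 6165. When all probe sets were fitted, more features were tested, with 1647 calls in L428, 4927 in L1236 and 1403 for the difference. Why the counts changed was not tested. No depth exists for arrays; 3 arrays a group and low signals limit the precision.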
